A study of Mus musculus with 54 samples.

Results

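Brainstem RNA of C3H HeJ male mice was compared with that of C57BL6/J male mice on 3'-biased expression arrays. The comparison uses 6 of the 54 arrays of the series: the 3 labelled brainstem and C3H HeJ, and the 3 labelled brainstem and C57BL6/J. Each array held brainstem RNA pooled from 3 mice killed at postnatal day 60. In each strain 1 pool came from mice that had been tested for prepulse inhibition of startle from postnatal day 50, with a 120 dB startle sound and prepulses of 75 or 80 dB, and 2 pools came from untested mice. They are called tested 1, untested 1 and untested 2 below. The mice were of plain inbred strains, with no transgene, drug or other treatment. C3H/HeJ mice are known to carry a retinal degeneration allele and a Tlr4 allele that blunts the response to endotoxin, neither of which was assayed here. Because tissue was pooled, the spread between arrays is a spread between pools, and the p-values measure that spread alone. In whole tissue, fewer cells of a type and less RNA per cell cannot be told apart.

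Prepulse inhibition is the reduction of a startle response by a weaker sound just before it. Startle itself is a short brainstem reflex, from the auditory nerve through the cochlear nuclei to giant neurons of the caudal pontine reticular nucleus and on to motor neurons. Midbrain and pontine cholinergic, GABAergic and glycinergic neurons act on that reflex, and serotonin neurons of the raphe and noradrenaline neurons of the locus coeruleus modulate it. The brainstem therefore holds the reflex arc itself, while hippocampus and striatum act on it from outside.

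All values are log2 levels per probe set, as deposited, and a difference is C3H HeJ minus C57BL6/J on that scale, so 1 is a 2-fold difference. On the 6 arrays the levels ran from -0.12 to 16.89, with array medians of 4.43 to 4.57. Each gene is given by its brightest probe set, and 12484 genes stood above the 40th percentile of the array (3.26 to 3.35 on these 6) on at least 3 of the 18 brainstem arrays and were tested with limma, in a fit over all 18 brainstem arrays of 6 strains with behavioural testing as a term. A gene is said to be higher or lower only where its Benjamini-Hochberg adjusted p was under 0.05. Errors of differences are standard errors (SE) from the fit, with 3 arrays per strain (2 for C3H HeJ where an array is left out). Array number limits the precision throughout.

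The C3H HeJ untested 2 array stood apart from the other brainstem arrays. Over all 45101 probe sets, its correlation with the other C3H HeJ arrays was 0.9891 and 0.9883. The correlation was 0.9988 between those arrays and 0.9989 to 0.9992 among the C57BL6/J arrays. Untested 2 was more than 1 log2 unit above the mean of the other C3H HeJ arrays in 430 genes and more than 1 below in 523. The other C3H HeJ arrays were that far apart in 47 genes, fewer than untested 2 was from them. Genes of cerebellar granule and Purkinje cells were high on it. The array was set apart beforehand as high in Pcp2, Gabra6 and Cbln3, so their values describe that choice and do not test it. The cerebellar marker list below includes these genes. Pcp2, a Purkinje cell protein, was at 14.64 on untested 2, at 9.77 on C3H HeJ tested 1 and at 8.91 on C3H HeJ untested 1. On the C57BL6/J arrays it was at 6.87, 7.67 and 8.52. Cbln3, a granule cell synaptic organiser, was at 14.38, against 8.81 and 7.73 on the other C3H HeJ arrays and 7.06, 7.08 and 7.40 in C57BL6/J. Gabra6, the granule cell GABA-A receptor subunit, was at 14.51, against 9.64 and 8.73 and then 6.92, 7.56 and 7.78.

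The whole list of 19 tested cerebellar markers averaged 12.49 on that array, 8.92 and 8.62 on the other C3H HeJ arrays, and 8.10 to 8.36 in C57BL6/J. Each of the 19 was higher there than the mean of the other C3H HeJ arrays, by 1.31 to 6.35. Genes of the hindbrain itself were low there. The 13 tested Hox genes, which mark the level of the hindbrain and spinal cord, averaged 6.14 on it, 7.23 and 7.42 on the other C3H HeJ arrays and 7.15 to 7.24 in C57BL6/J. The 15 tested markers of brainstem neurons averaged 8.21 on it and 9.50 to 9.61 on the other 5 arrays, so the mean of the list was alike on those 5. The list median was 9.57 and 9.19 on C3H HeJ tested 1 and untested 1, and 8.81 to 8.83 in C57BL6/J. Without untested 2, 3 of the 15 were higher and 2 lower. Oligodendrocyte, precursor, microglia and choroid plexus lists were also lowest on that array. The other C3H HeJ arrays were above all C57BL6/J arrays in the cerebellar list too, by a smaller distance. Results are therefore given with all arrays and without C3H HeJ untested 2, in that order where a pair of values follows a gene.

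**Figure D1:**
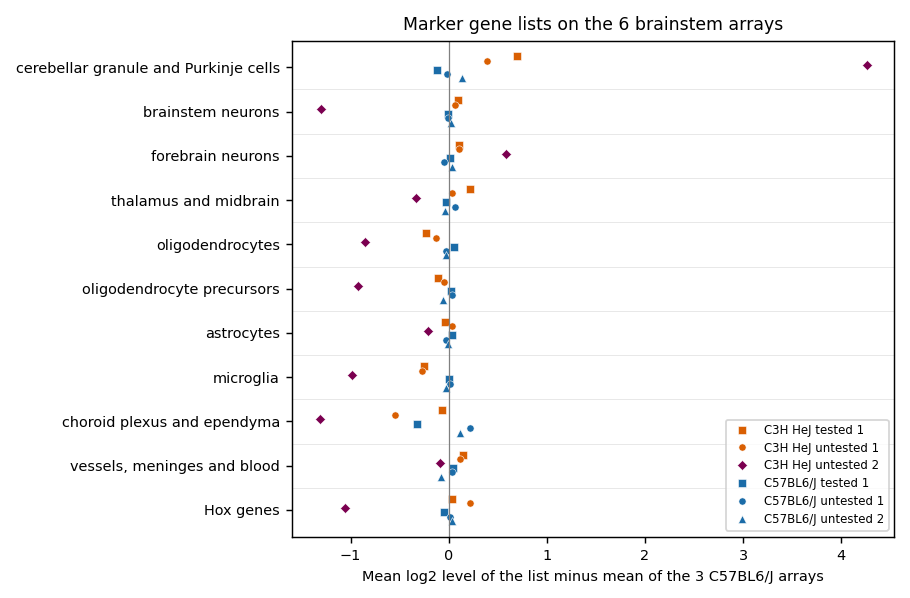
Mean log2 level of each marker list, and of the tested Hox genes, on the 6 brainstem arrays, as the distance from the mean of the 3 C57BL6/J arrays (x axis, log2; 1 point per array). C3H HeJ untested 2 (diamond) averages 12.49 in the cerebellar list, against 8.10 to 8.36 in C57BL6/J, and 6.14 in the Hox genes, against 7.15 to 7.24.

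With all arrays, 2408 genes (19.3% of those tested) differed between the strains, 1446 higher (11.6%) and 962 lower (7.71%) in C3H HeJ, and 293 of them (2.35%) by more than 2-fold. Without C3H HeJ untested 2, 2693 genes (21.6%) differed, 1823 higher (14.6%) and 870 lower (6.97%), with 255 (2.04%) over 2-fold. Of these, 1877 genes (15.0%) passed the same way in both fits, 1136 higher (9.10%) and 741 lower (5.94%), and 206 (1.65%) were over 2-fold in both. Another 531 genes passed with all arrays alone and 816 without the array alone, and 0 passed in opposite directions. The median difference over all tested genes was 0.02 with all arrays and 0.06 without the array.

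The split into higher and lower moved with the scaling: quantile normalization gave 977 higher and 1259 lower, and centring each array on its median gave 732 and 1344. Without C3H HeJ untested 2, the same scalings gave 1226 and 1143, and 898 and 1145. The counts also moved with single libraries: leaving out C57BL6/J tested 1, untested 1 or untested 2 gave 1547, 1405 and 1568 genes, and leaving out C3H HeJ untested 1 gave 517 genes over 2-fold. A fit on the 6 arrays alone called 222 genes, and 2157 once C3H HeJ untested 2 was left out. The 3 arrays of 1 strain lay wholly above or below those of the other in 4207 genes (33.7%), with C3H HeJ above in 2662 (21.3%) and below in 1545 (12.4%). The count of each list below stands against these shares over all genes, and no list was tested for enrichment.

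**Figure D2:**
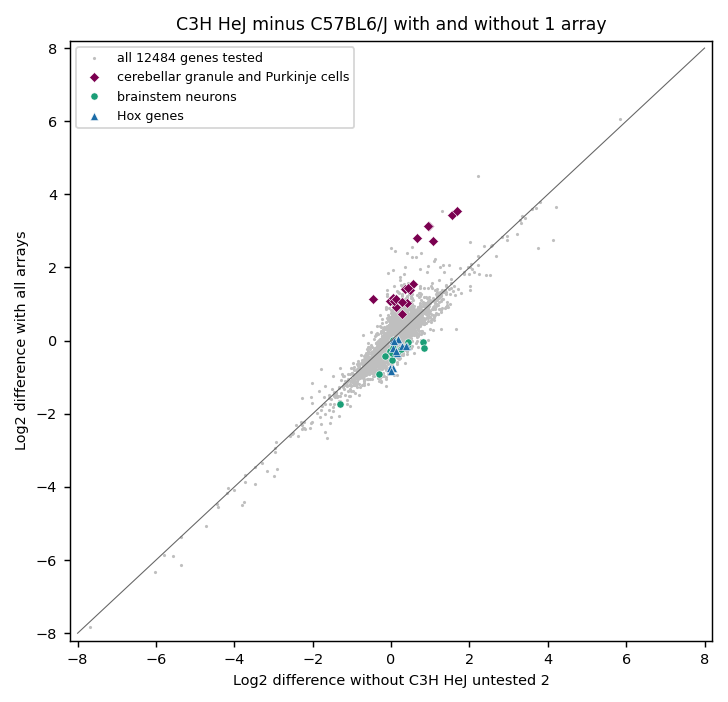
Difference of each tested gene with all arrays (y axis, log2) against the difference without C3H HeJ untested 2 (x axis, log2), 1 point per gene, with the line of equal values. Cerebellar markers (diamonds) lie above the line, with a median of 1.37 with all arrays and 0.40 without the array, and brainstem neuron and Hox genes lie mostly below it. Some genes with large differences lie near the line, such as Rpgrip1 (-7.83 with all arrays and -7.68 without the array). Others lie well above it, such as Cnpy1 (4.51 and 2.22) and Gabra6 (3.54 and 1.68).

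The genes furthest above C57BL6/J in both fits had varied roles. Tmem87a, a multi-pass membrane protein of the Golgi, was at 7.65, 7.97 and 8.50 in C3H HeJ (tested 1, untested 1, untested 2, the order used from here on) and at 1.95, 1.98 and 2.00 in C57BL6/J (same order). All C57BL6/J values lay below the 40th percentile of their arrays, and the difference was 6.07 ± 0.13 with all arrays and 5.85 ± 0.06 without untested 2 (adjusted p = 7.85e-13 and 2.73e-16). Pla2g4e, a cytosolic phospholipase A2 that makes N-acyl phosphatidylethanolamines, lies near Tmem87a on chromosome 2 and was higher by 3.79 ± 0.25 and 3.80 ± 0.28. Sv2c, a synaptic vesicle glycoprotein, was at 7.88, 7.64 and 6.00 in C3H HeJ and 3.62, 3.63 and 3.31 in C57BL6/J, lowest in C3H HeJ on untested 2 but still above every C57BL6/J array (3.65 ± 0.34 with all arrays and 4.22 ± 0.19 without untested 2). BalbC/J was high as well, with means of 9.01 for Tmem87a and 7.42 for Sv2c, while C57BL10/J, C57BLKS/J and C57L/J were near C57BL6/J in both.

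Rbm45, an RNA-binding protein, was at 13.05, 13.18 and 13.13 against 9.49, 9.59 and 9.52, a difference of 3.59 ± 0.13 with all arrays and 3.59 ± 0.15 without untested 2. Cap1, which turns over actin filaments, was at 11.60, 11.64 and 11.44 against 8.26, 8.27 and 8.06 (3.36 ± 0.07 and 3.41 ± 0.07), and both of its probe sets were higher. In both genes the arrays within a strain differed far less than the strains did. Rbm45 was high in BalbC/J too (mean 13.41), and C57BL10/J, C57BLKS/J and C57L/J had means of 9.62 to 9.71. Cap1 was low in C57L/J too (8.24), and BalbC/J, C57BL10/J and C57BLKS/J had means of 11.61 to 11.71. Nme7, a nucleoside diphosphate kinase of the centrosome and cilia, was at 11.22, 11.43 and 11.38 in C3H HeJ and 8.0, 8.08 and 8.07 in C57BL6/J. The means of the other 4 strains were 8.06 to 8.17, so C3H HeJ alone was high (3.30 ± 0.07 and 3.28 ± 0.08), on 1 of 2 probe sets: the other Nme7 probe set was at 4.09 and 4.10.

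H2-Bl, a class I histocompatibility gene, was higher by 3.63 ± 0.24 and 3.70 ± 0.27. C57L/J was high as well (mean 9.88), and BalbC/J, C57BL10/J and C57BLKS/J had means of 3.92 to 4.16. Pi4kb, a Golgi phosphatidylinositol kinase, was higher by 3.41 ± 0.38 and 3.34 ± 0.42, and Abhd1, an alpha/beta hydrolase domain protein, by 3.20 ± 0.19 and 3.31 ± 0.20. The second probe set of Pi4kb did not pass (0.07). BalbC/J was high in Abhd1 (mean 8.08) and in Pi4kb (8.85), and C57BLKS/J in Pi4kb (8.59). Gabra6 is the sixth highest by its difference with all arrays (3.54 ± 1.09, adjusted p = 0.0366), and without untested 2 the difference was 1.68 ± 0.51 (adjusted p = 0.031). It was the sole gene among the 20 most different whose call ended under an alternative fit: leaving out C57BL6/J tested 1, untested 1 or untested 2 gave adjusted p = 0.12, 0.0865 and 0.0722.

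The largest difference was of a gene lower in C3H HeJ. Rpgrip1, a scaffold of the photoreceptor connecting cilium, was at 5.02, 4.97 and 4.53 in C3H HeJ and at 12.74, 12.77 and 12.49 in C57BL6/J, a difference of -7.83 ± 0.20 with all arrays and -7.68 ± 0.21 without untested 2. Its second tested probe set was low in both strains and differed by -0.04. On the brightest one BalbC/J was low too (mean 4.97), and C57BL10/J, C57BLKS/J and C57L/J had means of 12.56 to 12.60. Rps9, a small ribosomal subunit protein, fell short of C57BL6/J by 5.85 ± 0.14 and 5.80 ± 0.15 at its brightest probe set, with levels of 9.30, 9.33 and 9.12 against 14.98, 15.11 and 15.20. On its second probe set the difference was 0.04, with means of 12.28 and 12.24, so the probe sets of this gene disagree. On the brightest Rps9 probe set BalbC/J and C57L/J were low too, each with a mean of 9.81.

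Pttg1, securin, was at 7.52, 7.51 and 7.49 against 12.98, 12.81 and 12.88, a difference of -5.38 ± 0.18 and -5.36 ± 0.21. All 3 of its probe sets were lower. The means of BalbC/J, C57BL10/J and C57L/J were also low, at 7.64, 7.46 and 7.97. C57BLKS/J, at 12.72, was near C57BL6/J. Ahnak2, a giant scaffold protein, was at 3.39, 3.72 and 2.68 in C3H HeJ and 9.56, 9.66 and 9.52 in C57BL6/J, while the other 4 strains had means of 9.33 to 9.83. Gm19439, a predicted gene, gave the same pattern, at 4.13 ± 1.36 (SD, n = 3) in C3H HeJ and 10.26 ± 0.28 in C57BL6/J, with 9.91 to 10.52 in the others. The Ahnak2 difference was -6.32 ± 0.19 and -6.02 ± 0.12, and that of Gm19439 -6.14 ± 0.51 and -5.35 ± 0.32. In both genes C3H HeJ was below all 5 other strains.

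Ighm, the immunoglobulin mu heavy chain, was at 5.81, 5.59 and 3.55 against 9.49, 9.43 and 9.53 (-4.50 ± 0.40, and -3.79 ± 0.15 without untested 2). Of its 4 tested probe sets 2 were lower, and the others did not pass (-0.04 and -0.01). Tmem267, a transmembrane protein, was lower by 5.06 ± 0.37 and 4.71 ± 0.36. Myo7a, the myosin of inner ear hair bundles, was lower by 4.54 ± 0.20 and 4.43 ± 0.21, and the claudin-like Cldn34c1 by 4.47 ± 0.14 and 4.45 ± 0.16. Myo7a was at 2.55, 2.31 and 2.18 in C3H HeJ, all below the 40th percentile of their arrays, and at 6.83, 6.90 and 6.93 in C57BL6/J. Cldn34c1 was at 2.90, 2.87 and 2.80 in C3H HeJ, also all below that percentile. BalbC/J was low as well, with means of 2.78 for Myo7a and 2.82 for Cldn34c1, and C57BLKS/J was low in Tmem267 (4.17). Among all tested genes, 17 were below that percentile on all C3H HeJ arrays and above it on all C57BL6/J arrays, and 13 were the reverse.

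**Figure D3:**
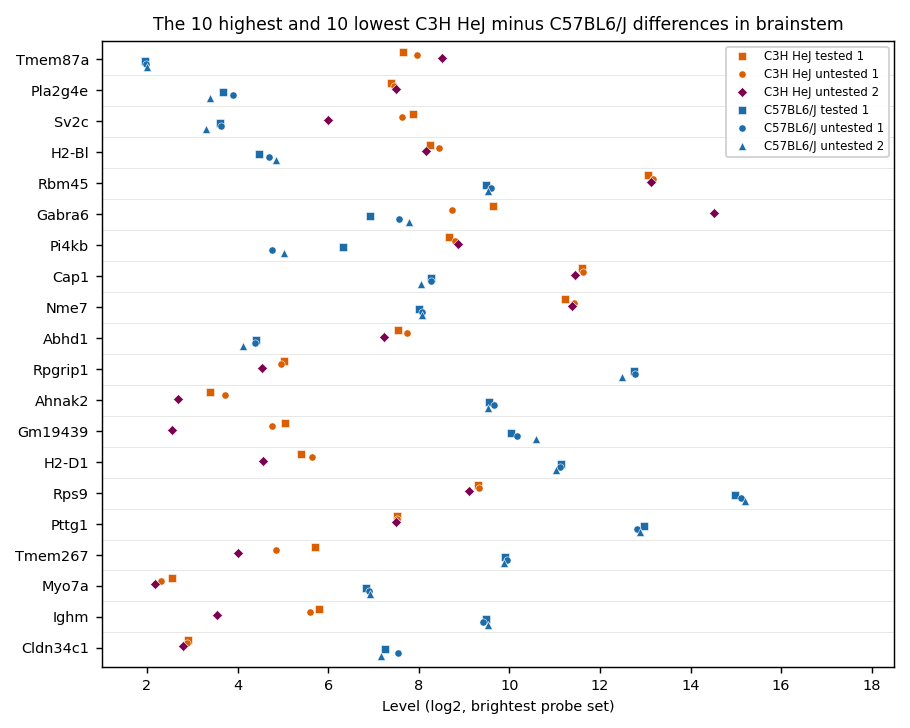
Levels (x axis, log2) of the 10 genes furthest above and the 10 furthest below C57BL6/J in C3H HeJ, on each of the 6 brainstem arrays (1 point per array). No C3H HeJ point overlaps the C57BL6/J points of its gene; Gabra6 runs from 8.73 to 14.51 within C3H HeJ.

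Fast inhibition in the brainstem runs on glycine as well as GABA. Of 12 listed glycine receptor, transporter and handling genes, 10 were tested. With all arrays 0 were higher and 2 lower, beside 11.6% and 7.71% of all genes. Without untested 2 it was 1 and 1, beside 14.6% and 6.97%, and the list medians were -0.17 and -0.02. Glra1, the adult glycine receptor alpha subunit whose loss causes startle disease, was the one lower in both fits. It was at 11.73, 11.78 and 10.57 in C3H HeJ and 13.16, 13.08 and 12.99 in C57BL6/J, which do not overlap. The difference was -1.72 ± 0.28 with all arrays and -1.30 ± 0.20 without untested 2 (adjusted p = 0.000926 and 0.000329), a 3.29-fold and 2.46-fold lower level, and its second probe set was lower by 2.38. On the 6 arrays alone its adjusted p was 0.102.

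Slc6a9, the glial glycine transporter, was lower with all arrays (-0.40, adjusted p = 0.0389) but not without the array (-0.20, adjusted p = 0.074) or without any 1 C57BL6/J array (adjusted p = 0.0871 to 0.102). Glra2, the fetal alpha subunit, was at 8.22, 8.34 and 4.88 against 8.24, 8.48 and 8.48, and Slc6a5, the neuronal glycine transporter, at 12.17, 12.16 and 11.08 against 12.18, 12.10 and 12.08. Neither passed in either fit, and in both the untested 2 array alone was low. Unlike these, Glra1 was below C57BL6/J on all C3H HeJ arrays. C3H HeJ was not the lowest strain, with a Glra1 mean of 11.36 against 10.03 in C57BL10/J and 9.55 in C57BLKS/J. The means of BalbC/J and C57L/J were 12.87 and 13.06, and that of C57BL6/J was 13.08.

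Among 10 tested GABA-A receptor subunits, which form chloride channels, 3 were higher and 1 lower with all arrays, beside 11.6% and 7.71% of all genes. Without untested 2 it was 5 and 1, beside 14.6% and 6.97%. Gabra6, far highest on untested 2, was among those higher in both fits. Leaving out any 1 C57BL6/J array left 2 of these subunits higher and 0 lower. Gabra2, the alpha 2 subunit, was at 11.23, 11.16 and 10.80 in C3H HeJ and 8.81, 9.13 and 9.01 in C57BL6/J (2.08 ± 0.11, and 2.22 ± 0.08 without the array). The means of the other 4 strains were 10.63 to 11.04, so C57BL6/J was the low strain, and 3 of its 4 tested probe sets were higher. Gabra4 was higher by 0.56 ± 0.10 and 0.42 ± 0.06. Gabra5, the extrasynaptic alpha 5 subunit, was at 11.30 and 11.34 on the first C3H HeJ arrays and lowest on untested 2, with a mean of 10.88 ± 0.77 (SD, n = 3) against 11.66 ± 0.11 in C57BL6/J. It was lower by 0.78 ± 0.25 with all arrays and by 0.32 ± 0.06 without. Its call with all arrays ended when any 1 C57BL6/J array was left out (adjusted p = 0.0812 to 0.132).

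Glutamate carries fast excitation. Of 15 tested ionotropic glutamate receptor genes, 2 were higher with all arrays and 1 without untested 2, near or below the 11.6% and 14.6% of all genes, and 0 were lower. Gria1, an AMPA receptor subunit, was at 11.49, 11.54 and 12.57 against 11.16, 11.13 and 11.00 (0.77 ± 0.20, and 0.42 ± 0.09 without the array), highest on untested 2. Its call with all arrays ended without C57BL6/J untested 1 or untested 2 (adjusted p = 0.0548 and 0.0674). Grik3, a kainate receptor subunit, passed with all arrays alone (0.23), and did not without C3H HeJ tested 1 or any 1 C57BL6/J array (adjusted p = 0.0581 to 0.142).

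Neurons of the auditory and motor brainstem fire at high rates and depend on fast sodium and potassium channels. Of 22 tested channel genes, 3 were higher and 1 lower with all arrays, and 4 and 3 without untested 2. With all arrays these shares are near those of all genes, 11.6% higher and 7.71% lower. Without untested 2 the shares of all genes were 14.6% and 6.97%. Scn4b, the sodium channel beta 4 subunit linked to resurgent current, was at 10.84, 10.95 and 10.12 in C3H HeJ and 12.42, 12.32 and 12.33 in C57BL6/J. It was lower by 1.72 ± 0.15 with all arrays and by 1.46 ± 0.05 without (adjusted p = 2.04e-06 and 1.41e-10), passed in every brainstem fit run, and the strains do not overlap. Fgf14, an intracellular partner of sodium channels at the axon initial segment, was at 11.14, 10.96 and 12.58 against 10.04, 10.05 and 9.85. It was higher by 1.58 ± 0.40 and 1.04 ± 0.32, and 2 of its 3 tested probe sets were higher with all arrays. Its call ended without C57BL6/J untested 2 (adjusted p = 0.0519).

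Scn2b, the beta 2 subunit, was higher by 0.55 ± 0.15 and 0.29 ± 0.06, but the mean over its probe sets gave -0.02, so its direction rests on the probe set. It did not pass without C57BL6/J tested 1 or untested 1 (adjusted p = 0.061 and 0.0602), and leaving out any 1 C57BL6/J array left 1 channel gene higher and 1 lower. Kcnab1, a potassium channel beta subunit, was lower without untested 2 alone (-0.30, adjusted p = 0.000775). Chrnb2, the beta 2 subunit of neuronal nicotinic receptors, was higher by 0.41 ± 0.11 and 0.25 ± 0.08, with 1 other of the 9 tested acetylcholine genes, Bche, lower with all arrays (-0.48; adjusted p = 0.149, 0.0586 and 0.0593 without C57BL6/J tested 1, C57BL6/J untested 2 and C3H HeJ tested 1) and 1, Lynx1, higher without the array (0.22). The Chrnb2 call ended under quantile normalization (adjusted p = 0.0563) and median centring (adjusted p = 0.0632), and without any 1 C57BL6/J array (adjusted p = 0.0534 to 0.0714). With untested 2 left out, median centring left 0 of the 9 acetylcholine genes higher, so the Lynx1 call ended there. The shares of all genes were 11.6% higher and 7.71% lower with all arrays, and 14.6% and 6.97% without untested 2.

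More monoamine and peptide genes passed without C3H HeJ untested 2 than with it, though most did not pass in either fit. Tph2, which makes serotonin in raphe neurons, was at 9.57, 9.19 and 6.79 in C3H HeJ and 8.32, 8.71 and 8.65 in C57BL6/J. The 2 other C3H HeJ arrays were above all C57BL6/J arrays and untested 2 was below them all, so the difference was -0.05 ± 0.49 with all arrays (adjusted p = 0.972) and 0.80 ± 0.22 without it (adjusted p = 0.0184). Slc6a4, the serotonin transporter, gave the same order, at 7.83, 7.14 and 4.25 against 6.57, 6.48 and 6.77, and passed in neither fit (adjusted p = 0.886 and 0.076). Ddc, the decarboxylase that completes serotonin and dopamine synthesis, was at 10.70, 10.82 and 9.44 against 10.29, 10.31 and 10.48, and was higher without untested 2 (0.40 ± 0.11, adjusted p = 0.0199). Gch1, which makes the tetrahydrobiopterin cofactor of these enzymes, was higher without it too (0.49 ± 0.09).

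In all, 0 of the 15 tested genes of monoamine synthesis, transport and breakdown were higher and 1 lower with all arrays, against 3 and 1 without untested 2. The shares of all genes were 11.6% higher and 7.71% lower with all arrays, and 14.6% and 6.97% without untested 2. The 1 lower in both fits was Slc29a4, a low-affinity monoamine transporter, at 6.43, 6.50 and 6.91 against 6.87, 7.11 and 6.99 (-0.38 ± 0.11 and -0.52 ± 0.09), though its brightest probe set over brainstem arrays alone gave 0.05. Its call with all arrays ended on leaving out any 1 of the other 5 arrays (adjusted p = 0.0595 to 0.119). Of 13 tested monoamine receptors, 0 passed with all arrays and 3 were higher without untested 2 (2 under either other scaling), beside 14.6% of all genes. Htr5b, a serotonin receptor, was at 6.74, 6.90 and 3.03 against 5.16, 5.09 and 5.43, and was higher by 1.64 ± 0.43 without untested 2 (adjusted p = 0.0143). Drd2, the D2 dopamine receptor, was at 7.38, 7.72 and 5.44 against 6.84, 6.91 and 6.98 (0.64 ± 0.18 without the array), and Htr4 was higher by 0.72 ± 0.13.

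Of 20 tested neuropeptide precursors, 0 were higher and 1 lower with all arrays, and 6 were higher and 0 lower without untested 2, or 4 and 0 under either other scaling. Of all genes 11.6% were higher and 7.71% lower with all arrays, and 14.6% were higher without the array. Tac1, the substance P precursor, was at 12.00, 12.20 and 11.03 against 11.54, 11.54 and 11.58, and was higher by 0.55 ± 0.05 without untested 2 (adjusted p = 5.34e-06). Sst, somatostatin, was at 11.23, 11.38 and 10.18 against 10.89, 10.81 and 10.76 (0.48 ± 0.07), and Gal, galanin, a peptide of locus coeruleus neurons, at 9.34, 9.54 and 7.29 against 8.78, 8.58 and 8.74 (0.77 ± 0.18). Nucb2, the nesfatin precursor, was higher by 0.42 ± 0.10. The other members of the 6 were Vip (0.37) and Crh (0.41), the vasoactive intestinal and stress-hormone-releasing peptides. In each of Tac1, Sst and Gal the untested 2 array was below all C57BL6/J arrays and the other C3H HeJ arrays were above them. Beside these values, the list of brainstem neuron markers averaged 9.61 and 9.58 on those arrays, 8.21 on untested 2 and 9.50 to 9.53 in C57BL6/J. Its medians were 9.57 and 9.19, 8.10, and 8.81 to 8.83, in that order. The part of these neurons in the peptide values was not tested.

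**Figure D4:**
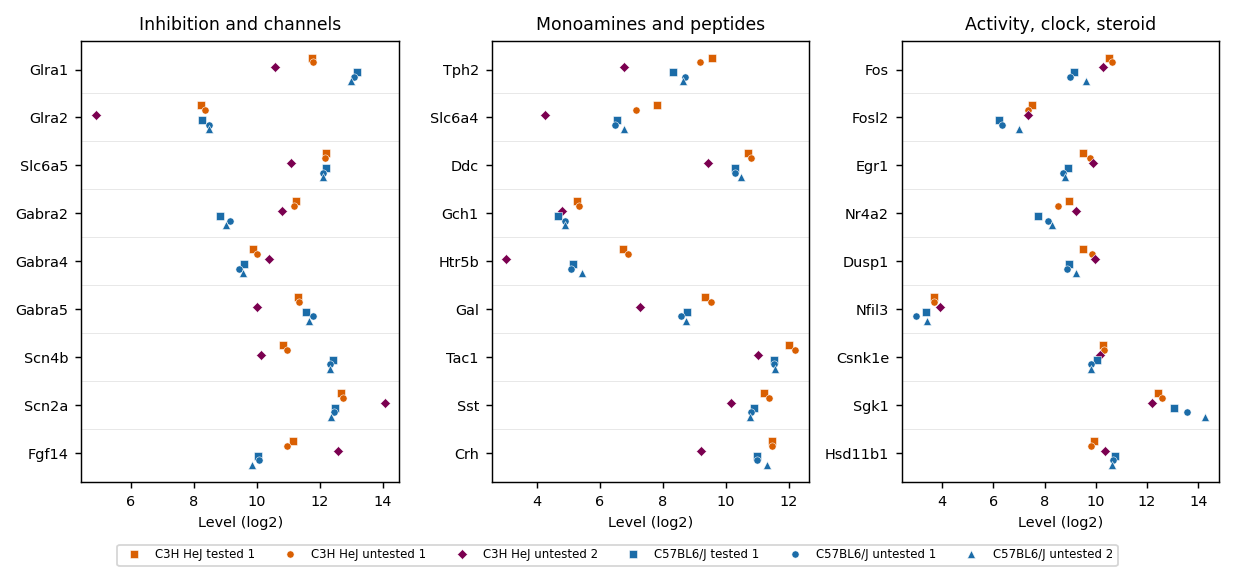
Levels (x axes, log2) of selected genes of inhibition and channels, of monoamines and peptides, and of activity, clock and steroid response on the 6 brainstem arrays (1 point per array). In the middle panel C3H HeJ untested 2 (diamond) is the lowest array for all genes but Gch1, and the other C3H HeJ arrays lie above C57BL6/J; in the right panel the 3 C3H HeJ arrays lie together on 1 side of C57BL6/J.

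Immediate early genes are switched on in neurons after calcium entry, and several were higher in C3H HeJ than in C57BL6/J with and without the array. Of 24 tested activity-regulated genes, 9 were higher and 0 lower with all arrays, and 6 and 0 without untested 2, beside 11.6% and 14.6% higher over all genes. The list medians were 0.40 and 0.22, and the 3 arrays of C3H HeJ lay above those of C57BL6/J in 12 of the 24, beside 21.3% of all genes. Under quantile normalization and median centring 5 were higher with all arrays, and 4 and 3 without the array. Leaving out 1 C57BL6/J array left 4 or 5 higher, and leaving out C3H HeJ tested 1 or untested 1 gave 14 and 11. Fos was at 10.52, 10.65 and 10.28 in C3H HeJ and 9.13, 9.01 and 9.60 in C57BL6/J, a difference of 1.23 ± 0.24 with all arrays and 1.27 ± 0.27 without (adjusted p = 0.00289 and 0.00388). All C3H HeJ arrays were above all C57BL6/J arrays, and the tested pool was not set apart from the untested pools in either strain.

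Egr1 was at 9.49, 9.79 and 9.91 against 8.92, 8.73 and 8.81 (0.91 ± 0.16 and 0.77 ± 0.17), and Fosl2, a Fos-related factor, at 7.51, 7.36 and 7.36 against 6.23, 6.33 and 6.99 (0.90 ± 0.21 and 0.91 ± 0.23). Dusp1, a phosphatase that shuts off MAP kinases, was at 9.49, 9.84 and 9.99 against 8.94, 8.87 and 9.21 (0.77 ± 0.18 and 0.64 ± 0.18). Nr4a2, an orphan nuclear receptor, was at 8.94, 8.51 and 9.22 against 7.76, 8.12 and 8.31 (0.83 and 0.63), and Gadd45b, a growth arrest gene, was higher by 0.32 and 0.34. The arrays of C3H HeJ and C57BL6/J do not overlap in any of these. In Fos, Egr1, Fosl2 and Dusp1, C57BL6/J had the lowest mean of the 6 strains. Its Fos mean was 9.25, against 10.48 in C3H HeJ and 9.81 to 10.69 in the other 4 strains. For Egr1 it was 8.82, against 9.01 to 9.44 in those strains, and for Dusp1 9.01, against 9.23 to 9.81. C3H HeJ had the highest mean in Egr1, and BalbC/J in Fos and Dusp1. Both were at 7.41 in Fosl2. On the 6 arrays alone Fos, Egr1, Fosl2 and Dusp1 had adjusted p = 0.0653, 0.054, 0.164 and 0.0924, and Fosl2 also did not pass without C57BL6/J tested 1 (adjusted p = 0.0544).

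Activity-regulated promoters are known for cAMP response elements, which bind CREB. The promoters of 5 of the 6 genes higher in both fits were in RefSeq's promoter table (GRCm38.p6), and 3 of them held the core of that element, TGACG, on either strand in the 250 bases before the start. They are printed 5′ to 3′ on the gene's strand because these genes were higher together, with each core, or its complement CGTCA, in capitals. The Fos window is chr12:85473640-85473889 on the plus strand, that of Nr4a2 chr2:57124004-57124253 on the minus strand, and that of Dusp1 chr17:26508473-26508722 on the minus strand.
Fos: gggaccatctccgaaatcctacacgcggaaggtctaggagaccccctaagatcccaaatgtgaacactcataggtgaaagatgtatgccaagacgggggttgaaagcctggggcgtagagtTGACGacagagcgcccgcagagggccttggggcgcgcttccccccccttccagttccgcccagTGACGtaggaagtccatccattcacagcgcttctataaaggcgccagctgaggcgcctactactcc
Nr4a2: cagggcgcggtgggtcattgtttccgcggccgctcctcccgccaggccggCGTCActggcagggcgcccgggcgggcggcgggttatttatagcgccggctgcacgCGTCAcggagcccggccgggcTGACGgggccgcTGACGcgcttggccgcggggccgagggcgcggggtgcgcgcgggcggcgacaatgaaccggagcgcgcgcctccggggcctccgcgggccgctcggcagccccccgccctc
Dusp1: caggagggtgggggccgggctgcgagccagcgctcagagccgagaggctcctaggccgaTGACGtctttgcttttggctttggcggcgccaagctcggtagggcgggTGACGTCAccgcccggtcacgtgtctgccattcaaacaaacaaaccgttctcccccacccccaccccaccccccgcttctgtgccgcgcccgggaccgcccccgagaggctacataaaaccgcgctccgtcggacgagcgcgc
Fos had 2 cores, at -129 and -66 from the start, Nr4a2 had 4, and Dusp1 had 1 single core and 1 full TGACGTCA palindrome, which reads as a core on each strand. Of all 32851 promoter windows of this length, 17.8% held TGACG on either strand, and 1.55% held TGACGTCA. Fosl2 and Gadd45b had 0 cores in their windows, and none of the 5 windows held a CArG box, the serum response element motif, which 1.47% of all windows held. These matches describe the letters of the windows only.

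Some clock genes were also higher. Of 20 tested, 6 were higher and 0 lower with all arrays, and 5 and 0 without untested 2, beside 11.6% and 14.6% of all genes higher. The list medians were 0.31 and 0.12. Median centring left 3 and 2 higher, leaving out 1 C57BL6/J array left 4 or 5, and leaving out C3H HeJ tested 1 gave 10. Csnk1e, the kinase that marks PER proteins for decay, was at 10.27, 10.32 and 10.15 against 10.04, 9.81 and 9.81 (0.36 ± 0.07 and 0.40 ± 0.08). Nfil3, a repressor of D-box genes, was at 3.71, 3.69 and 3.93 against 3.36, 2.99 and 3.42, close to the 40th percentile, and was higher by 0.52 ± 0.09 and 0.43 ± 0.09. Cry2, a repressor arm of the clock, was higher by 0.42 ± 0.10 and 0.29 ± 0.08, and Nr1d2, a REV-ERB nuclear receptor, by 0.30 ± 0.08 and 0.16 ± 0.04. The Nr1d2 call with all arrays ended when any 1 C57BL6/J array was left out (adjusted p = 0.062 to 0.0661). The time of day at which tissue was taken was not analysed here.

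Several glucocorticoid-responsive genes were lower. Of 18 tested, 0 were higher and 5 lower with all arrays, and 0 and 4 without untested 2, beside 7.71% and 6.97% lower over all genes, with list medians of -0.27 and -0.37. Without C3H HeJ tested 1, C57BL6/J untested 1 or C57BL6/J untested 2 there were 2, 3 and 1 lower. Hsd11b1, which regenerates active corticosterone within cells, was at 9.92, 9.80 and 10.38 in C3H HeJ and 10.75, 10.68 and 10.65 in C57BL6/J (-0.66 ± 0.11 and -0.84 ± 0.06). Tsc22d3, the glucocorticoid-induced leucine zipper, was at 12.05, 12.49 and 11.79 against 12.51, 12.65 and 12.88 (-0.57 ± 0.15 and -0.38 ± 0.12), and did not pass without C57BL6/J untested 2 (adjusted p = 0.0747). Klf9 was lower without C3H HeJ untested 2 alone (-0.42), but its second probe set was higher with all arrays (0.56), so its probe sets disagree. Sgk1, a kinase induced by corticosterone, was at 12.43, 12.60 and 12.20 against 13.06, 13.55 and 14.26 and passed with all arrays alone (-1.21 ± 0.40, against -1.14 ± 0.45 without). Arrdc2, an arrestin-domain protein, did the same, at 5.67, 6.71 and 5.20 against 7.20, 7.49 and 8.56. In Sgk1 and Arrdc2 the C57BL6/J arrays themselves spread over more than 1 log2 unit, with untested 2 highest, and without that array the adjusted p was 0.199 for Sgk1 and 0.112 for Arrdc2. Without C3H HeJ tested 1 it was 0.0957 and 0.0672, and without C57BL6/J untested 1 it was 0.114 and 0.0569.

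Enzymes that use pyridoxal phosphate, the active form of vitamin B6, include the protein named in the study's title. Of 35 tested, 1 was higher and 7 lower with all arrays, and 3 and 6 without untested 2, beside 7.71% and 6.97% of all genes lower, with list medians of -0.03 and 0.03. Etnppl, the astrocyte enzyme that breaks down phosphoethanolamine, was at 7.23, 7.68 and 7.08 in C3H HeJ and 11.13, 11.18 and 11.30 in C57BL6/J, lower by 3.87 ± 0.16 with all arrays and by 3.72 ± 0.15 without (14.7-fold and 13.2-fold). The other 4 strains had means of 9.84 to 11.23, so C3H HeJ was the lowest of the 6, and both Etnppl probe sets were lower.

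Pdxdc1, the pyridoxal-dependent decarboxylase domain protein of the title, was at 7.89, 8.02 and 7.43 against 9.53, 9.48 and 9.49 on its brightest probe set (-1.72 ± 0.15 and -1.55 ± 0.13). Its 4 probe sets disagree: 3 were lower, by 1.72, 7.25 and 2.26, and 1 was higher by 7.62, with means of 10.57 in C3H HeJ and 2.95 in C57BL6/J. The probe sets thus give no single direction for the gene. Odc1, the first enzyme of polyamine synthesis, was lower by 0.50 ± 0.08 and 0.38 ± 0.06. Bcat1, a branched-chain aminotransferase, was lower by 0.55 ± 0.16 and 0.25 ± 0.05, and its call with all arrays ended when any 1 C57BL6/J array was left out (adjusted p = 0.0718 to 0.0935).

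Of 21 tested candidate genes for prepulse inhibition and schizophrenia, 4 were higher and 3 lower with all arrays, and 5 and 3 without untested 2. Called either way with all arrays were thus 7 of 21, beside 19.3% of all genes. Without untested 2 the shares of all genes were 14.6% higher and 6.97% lower. Median centring gave 1 higher and 4 lower, and leaving out 1 C57BL6/J array 1 or 2 in each direction. The lower ones included Pdxdc1 by its brightest probe set alone. Nrg1, the growth factor neuregulin 1, was lower, at 8.42, 8.23 and 7.15 against 8.66, 8.73 and 8.73, by 0.77 ± 0.22 and 0.38 ± 0.09. Its call with all arrays ended when any 1 C57BL6/J array was left out (adjusted p = 0.0565 to 0.088). Fzd3, a Wnt receptor of axon guidance, was higher by 0.33 ± 0.07 and 0.32 ± 0.08, though the mean over its probe sets did not pass (0.08). Elovl7, a fatty acid elongase, was higher without untested 2 alone (0.75 ± 0.16) on its brightest probe set, and another of its 6 probe sets was lower in both fits (-0.86 and -0.51).

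Immune genes were led by differences of the histocompatibility complex on chromosome 17. C3H HeJ and C57BL6/J carry different haplotypes there, and probe sets designed on 1 allele can read both unequally. H2-D1, a classical class I chain, was at 5.41, 5.65 and 4.56 against 11.13, 11.12 and 11.04 (-5.89 ± 0.20 and -5.56 ± 0.11), yet of its 8 tested probe sets 4 were lower, 1 was higher by 5.07 and 3 did not pass. H2-K1 was at 6.49, 6.34 and 4.41 against 10.20, 10.23 and 10.07 (-4.42 ± 0.37 and -3.75 ± 0.12), and H2-Ab1, a class II chain, was lower by 0.75 ± 0.21 and 0.70 ± 0.23. H2-Ab1 did not pass when any 1 C57BL6/J array was left out (adjusted p = 0.064 to 0.0655). Of 10 tested genes of antigen presentation, 2 were higher and 3 lower with all arrays, and 1 and 3 without untested 2. Under quantile normalization or median centring of all arrays 0 were higher. The shares of all genes were 11.6% higher and 7.71% lower with all arrays, and 14.6% and 6.97% without untested 2. The strains' alleles and the probe sequences were not used here, and their part in these differences was not tested.

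Complement C1q, made by microglia and used to tag synapses, differed by chain. C1qc was at 6.56, 6.77 and 6.22 in C3H HeJ and 8.94, 8.95 and 8.82 in C57BL6/J (-2.39 ± 0.17 and -2.23 ± 0.16), and C1qb was at 9.86, 9.97 and 9.01 against 10.88, 11.28 and 11.13 (-1.48 ± 0.19 and -1.17 ± 0.11), lower on 3 of 3 probe sets. C1qa, the third chain, was at 9.79, 9.83 and 9.15 against 9.59, 9.52 and 9.59, and was higher without untested 2 (0.25 ± 0.08) and not with it (0.03 ± 0.14). Without untested 2 it did not pass under quantile normalization (adjusted p = 0.151) or median centring (adjusted p = 0.25). The chains sit side by side in the genome and are assembled together. Cd59a, which blocks the membrane attack complex, was lower by 0.62 ± 0.11 and 0.54 ± 0.11. In all 3 of 7 tested complement genes were lower in both fits, beside 5.94% of all genes.

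Of 13 tested microglia markers, 0 were higher and 3 lower with all arrays, beside 11.6% and 7.71% of all genes. Without untested 2 it was 3 and 3, beside 14.6% and 6.97%. The list averaged 7.58, 7.56 and 6.84 in C3H HeJ and 7.81 to 7.85 in C57BL6/J. Fcrls, an Fc receptor-like marker of resident microglia, was at 3.91, 4.06 and 4.04 against 4.99, 4.70 and 4.81 (-0.83 ± 0.14 and -0.85 ± 0.15), while P2ry12, the microglial purinergic receptor, was higher without untested 2 (0.54 ± 0.13). Thus the 3 lower markers were C1qb, C1qc and Fcrls, and the other 10 did not pass in that direction. Of 18 tested interferon-related genes, 1 was higher and 1 lower with all arrays, and 1 and 0 without untested 2. These counts stand beside the same shares of all genes. Stat2, the interferon signal transducer, passed with all arrays alone (0.83 ± 0.23; adjusted p = 0.0598 to 0.075 without any 1 C57BL6/J array), and Gbp3, a guanylate-binding protein, without the array alone (1.11 ± 0.27).

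Some glial markers were lower, and the mean level of the oligodendrocyte, precursor, astrocyte and microglia lists was lowest on C3H HeJ untested 2. Of 13 tested oligodendrocyte markers, 1 was higher and 7 lower with all arrays, and 0 and 5 without untested 2, beside 7.71% and 6.97% of all genes lower. The list medians were -0.43 and -0.16. Leaving out C57BL6/J tested 1, untested 1 or untested 2 left 2, 2 and 3 lower. Mog, a myelin surface protein, was at 12.36, 12.67 and 11.60 against 12.92, 12.95 and 12.91 (-0.72 ± 0.19 and -0.41 ± 0.11). Ermn, a myelin cytoskeletal protein, was lower by 0.76 ± 0.18 and 0.46 ± 0.09, Mal by 0.50 ± 0.12 and 0.30 ± 0.06, and Gjb1, connexin 32, by 0.78 ± 0.22 and 0.40 ± 0.09. The calls of Mog and Gjb1 with all arrays ended when any 1 C57BL6/J array was left out (adjusted p = 0.0522 to 0.0723).

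Of 8 tested markers of oligodendrocyte precursors, 0 were higher and 3 lower with all arrays, and 1 and 3 without. Of all genes 7.71% and 6.97% were lower. Olig2, the lineage transcription factor, was at 10.49, 10.52 and 9.56 against 11.08, 11.12 and 11.08 (-0.91 ± 0.19 and -0.57 ± 0.07), and Sox10 at 10.30, 10.42 and 9.44 against 10.80, 10.70 and 10.66 (-0.67 ± 0.18 and -0.37 ± 0.09). In both genes all C3H HeJ arrays were below all C57BL6/J arrays, though Sox10 did not pass without C57BL6/J tested 1 or untested 1 (adjusted p = 0.0592 and 0.0611). The means of the other 4 strains for Olig2, 10.38 to 10.81, lay below C57BL6/J as well.

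Of 13 tested astrocyte markers, 0 were higher and 4 lower with all arrays, and 1 and 3 without untested 2. Of all genes 7.71% and 6.97% were lower. Slc1a2, the main glutamate transporter, was at 14.20, 14.23 and 14.01 against 14.75, 14.67 and 14.68 (-0.55 ± 0.05 and -0.48 ± 0.04), but its 4 tested probe sets gave -0.55, 1.71, -0.35 and -3.87. Gfap, the astrocyte filament protein, was at 13.67, 13.69 and 12.38 against 12.90, 13.12 and 12.94, higher without untested 2 (0.72 ± 0.10, adjusted p = 0.000207) and not with it (0.26 ± 0.26). Of its 3 probe sets, the dimmest was lower in both fits (-1.76 and -1.06), so they disagree. Glul, glutamine synthetase, was lower by 0.25 ± 0.06 and 0.21 ± 0.06 and did not pass without C57BL6/J untested 2 (adjusted p = 0.0541). Of 11 tested markers of vessels, meninges and blood, 0 passed in either fit, and of 8 of choroid plexus and ependyma, Ccdc153 alone was lower (-0.70 and -0.72).

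Neuronal cytoskeleton genes passed in both directions. Of 13 tested, 2 were higher and 2 lower with all arrays, and 3 and 3 without untested 2. Of all genes 11.6% were higher and 7.71% lower with all arrays, and 14.6% and 6.97% without untested 2. Map2, of dendrites, was higher by 0.23 ± 0.04 and 0.28 ± 0.03, and Ina, alpha-internexin, was lower by 0.34 ± 0.07 and 0.23 ± 0.04. Mapt, tau, was lower by 0.20 ± 0.05 and 0.21 ± 0.06, and Gap43, of growth cones, was higher by 0.32 ± 0.08 and 0.33 ± 0.09. Median centring ended the calls of Map2 and Gap43 (adjusted p = 0.0613 and 0.0597), and without C57BL6/J untested 1 Mapt and Gap43 did not pass (adjusted p = 0.0966 and 0.0679). Of 22 tested chaperones, 0 were higher and 4 lower with all arrays, and 1 and 2 without, beside 7.71% and 6.97% of all genes lower. The lower ones were led by Dnaja1 (-0.39 ± 0.08 and -0.29 ± 0.07) and Cryab (-0.54 ± 0.16 and -0.29 ± 0.10). Cryab did not pass without C57BL6/J untested 1 or untested 2 (adjusted p = 0.09 and 0.105).

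Genes already known to differ between inbred strains were listed with earlier results of these data known, so they are no test of the labels. Of 19 tested, 10 were higher and 3 lower with all arrays, beside 11.6% and 7.71% of all genes. Without untested 2 it was 10 and 2, beside 14.6% and 6.97%. Wdfy1, a phosphoinositide-binding protein, was at 11.10, 11.01 and 10.75 against 8.20, 7.92 and 8.17 (2.86 ± 0.09 and 2.95 ± 0.08), with the other 4 strains at 10.97 to 11.28. Alad, the second enzyme of haem synthesis, was at 10.07, 10.34 and 10.45 against 8.31, 7.81 and 7.79 (2.32 ± 0.13 and 2.22 ± 0.14). Nnt, the mitochondrial transhydrogenase that is disrupted in C57BL/6J, was at 11.36, 11.17 and 10.71 against 9.78, 10.10 and 10.11 (1.09 and 1.27), and Glo1, a glyoxalase with a copy number gain in some strains, was higher by 1.11 and 1.15. Mid1, a gene at the pseudoautosomal boundary, was at 2.00, 1.97 and 1.92 against 5.11, 5.82 and 7.18 (-4.07 ± 0.31 and -4.01 ± 0.35). In each of these genes the untested 2 array lay on the same side of C57BL6/J as the other C3H HeJ arrays. In Wdfy1 the other 4 strains did so too, so that gene does not set C3H HeJ apart from them. Of the Y-linked genes, which all these males carry, Uty (1.39 ± 0.12 and 1.38 ± 0.14), Kdm5d (1.25 ± 0.13 and 1.18 ± 0.14) and Eif2s3y (1.51 ± 0.17 and 1.39 ± 0.18) were all higher, and the other 4 strains had means close to C57BL6/J (7.74 to 8.03 for Uty against 7.85).

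Called genes were spread over the chromosomes. The share of tested genes that passed the same way in both fits ran from 11.5% on X and 12.1% on chromosome 10 to 20.4% on chromosome 8, around 15.0% over all genes, and 3 of 5 tested Y genes passed. Genes next to Tmem87a on chromosome 2, in RefSeq's order, included called genes in both directions: 7 of the 9 others tested among the 5 on each side passed with all arrays, against 19.3% of all genes, next to a gene picked for its large difference. Vps39, a lysosomal fusion protein 1 step away, was higher by 1.44 and 1.53, Zfp106, an RNA-binding zinc finger, by 0.26 and 0.30, and Ganc, a glucosidase, by 0.45 and 0.46. Snap23, a plasma membrane SNARE, was lower by 0.86 and 0.70, Capn3, a calpain, by 0.53 and 0.58, and Lrrc57 by 0.48 and 0.40.

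Whether a strain difference belongs to the brainstem was tested against the same strains' hippocampus and striatum, as the brainstem difference minus the mean of the other tissues' differences. The same mice gave all 3 tissues and were taken as independent. Of 11606 genes tested in all tissues, 614 (5.29%) differed with all arrays and 306 (2.64%) without C3H HeJ untested 2, and 224 (1.93%) did so in both, 130 with the brainstem difference above and 94 below. Leaving out C3H HeJ tested 1 or untested 1 gave 1201 and 1384 genes, and leaving out C57BL6/J untested 1 or untested 2 gave 296 and 321. Glra1 was lower in brainstem (-1.72) and differed by 0.06 and 0.01 in hippocampus and striatum. The interaction was -1.75 ± 0.23 (adjusted p = 3.56e-06), and -1.33 without the array (adjusted p = 5.07e-06). Levels in hippocampus and striatum are not given here, so differences near 0 there are not set against how high a gene stood.

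Ighm gave -4.50 in brainstem against -0.08 and -0.33, H2-Bl gave 3.63 against 0.10 and 0.07, and Fam227b, of unknown function, gave -2.30 against 0.05 and -0.01. Cnpy1, a regulator of FGF signalling at the midbrain and hindbrain border, was at 7.24, 6.30 and 13.09 against 4.23, 3.74 and 5.14 and gave 4.51 against 0.06 and 0.00, or 2.22 without untested 2, the array with the high value. Fgf14 gave 1.58 against 0.05 and -0.23, and Egr1 0.91 against 0.01 and -0.21. Fos, by contrast, did not pass this test (1.51 ± 0.52, adjusted p = 0.0769).

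Some differences were smaller in brainstem. Etnppl was lower by 3.87 there, by 6.34 in hippocampus and by 6.25 in striatum (interaction 2.42 ± 0.57, adjusted p = 0.00842). Mir1931, a microRNA gene whose probe set was at 2.45 ± 0.11 (SD, n = 3) and 3.50 ± 0.29 in brainstem, both near or below the 40th percentile, was lower by 1.04 there and by 5.05 and 6.68 in the other tissues. Cfap54, a ciliary protein, was higher by 0.76 in brainstem and by 3.44 and 4.33 elsewhere, again from low brainstem levels (4.10 ± 0.49 and 3.34 ± 0.32, SD, n = 3), and its brainstem call ended without C3H HeJ tested 1, C3H HeJ untested 1, C57BL6/J untested 1 or C57BL6/J untested 2 (adjusted p = 0.0503 to 0.158). Nrg1 had opposite signs: -0.77 in brainstem, 0.57 in hippocampus and 0.61 in striatum (interaction -1.37 ± 0.21, adjusted p = 6.97e-05).

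**Figure D5:**
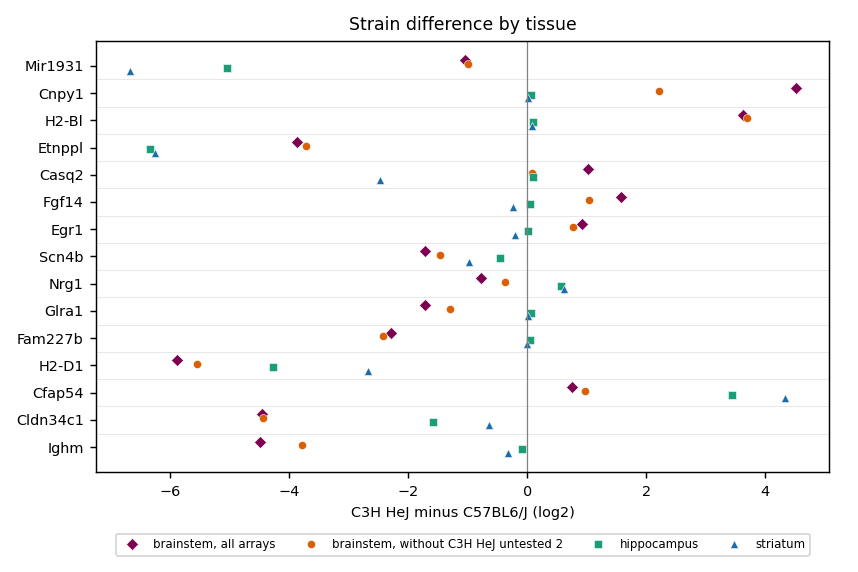
Difference C3H HeJ minus C57BL6/J (x axis, log2) of genes whose brainstem difference departed from the other tissues, in brainstem with all arrays and without C3H HeJ untested 2, in hippocampus and in striatum (1 point per fit). Glra1, Ighm, H2-Bl and Fam227b depart from 0 in brainstem alone, Etnppl and Mir1931 are further below 0 in hippocampus and striatum, and Nrg1 changes sign.

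Some genes passed in 1 of the fits alone. With C3H HeJ untested 2 and not without it, the highest were Cnpy1 (4.51), Pde5a, a cGMP phosphodiesterase of Purkinje cells (1.45), Xkr6 (1.19), Rad52, of DNA repair (1.10), Gabpb2 (1.05) and Zfp58 (1.01). The lowest were Arrdc2 (-1.89), Sgk1 (-1.21), Rps6, a ribosomal protein (-1.05), H2-T24 (-1.0), Defb11 (-0.99) and Tmprss5 (-0.86). All of these calls also ended without at least 1 of the C57BL6/J arrays. Pde5a was at 7.29, 7.17 and 9.51 against 6.16, 6.61 and 6.85, so that all C3H HeJ arrays were above C57BL6/J and untested 2 lay far above the rest.

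Without the array and not with it, the lowest were Cdh7, a cadherin (-2.03), Rnf122 (-1.78), Dao, D-amino acid oxidase, which breaks down D-serine (-1.31), Tmod1 (-0.98), Pcdhgc4 (-0.85) and Abhd16a (-0.76). Cdh7 was at 6.65, 6.61 and 9.14 against 8.73, 8.61 and 8.55, and Dao at 7.62, 7.37 and 9.09 against 8.70, 8.70 and 8.93, each with untested 2 above every C57BL6/J array. The highest were S100a9 (3.76), Aplnr (2.54), Iigp1 (2.02), Htr5b (1.64), Sostdc1 (1.49) and Gm4349 (1.40). S100a9, a neutrophil calcium-binding protein, was at 4.89, 8.53 and 2.97 against 2.93, 2.86 and 3.02, and Iigp1, an interferon-induced GTPase, at 7.70, 3.95 and 3.69 against 3.69, 3.73 and 3.78. In S100a9 and Iigp1 the difference rests largely on 1 C3H HeJ array each.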

How the data were processed

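The deposited values are log2 expression levels of 45101 probe sets on 3' arrays, with all 54 arrays in one table. Per the submitters' processing notes, the authors used R 2.6.1, affy 1.16.0, RMA, GCRMA 2.10.0 and limma 2.12.0, but the sources used here do not say which of RMA and GCRMA made the log2 values, and give no scan date or hybridization batch. GCRMA and RMA differ most at low levels, so folds of dim probe sets depend on that choice. The 64 control probe sets were left out, 34945 had 1 gene symbol, 932 several and 9160 were unnamed here, giving 18193 genes. The arrays' platform annotation supplied the symbols.

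Each gene was its brightest probe set over 54 arrays. limma 3.58.1 (R 4.3.3) fitted strain and testing on 18 brainstem arrays, with an intensity trend, Benjamini-Hochberg adjustment and a threshold of 0.05. The fit was tested on simulated data. A second fit over 54 arrays tested brainstem against hippocampus and striatum. Alternatives were other scalings, filters, probe set choices, designs and left-out arrays.

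Genes and lists were chosen with earlier results of these data known. Named genes were the 10 highest and 10 lowest called in both fits, the 6 highest and 6 lowest called in 1 fit alone, up to 4 members of each list by smallest p, the 5 highest and 5 lowest against other tissues, and Pcp2, Gabra6, Cbln3, Pdxdc1, Etnppl and Glra1. Any other gene named was chosen after its values were seen.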

Additional observations from a re-analysis of the deposited data

Results flagged for a closer look

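The strain difference in brainstem was set against the mean of the hippocampus and striatum differences for the 125 named genes tested in all tissues, by limma's interaction term over all arrays. In 31 genes it passed, and 20 of these also passed without C3H HeJ untested 2. All values here are on the log2 scale, as the brainstem difference minus the mean of the others. The mice behind the tissues are shared and were taken as independent.

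Genes further above 0 in brainstem, with and without that array, were H2-Bl (3.54), Nme7 (1.94), Fgf14 (1.67), Egr1 (1.01), Scn2b (0.56), Gabra4 (0.48), Wdfy1 (0.47) and Cnpy1 (4.48, and 2.19 without the array). Casq2, the calcium store protein calsequestrin 2, gave 2.21 and 1.27: its difference was 1.02 in brainstem (0.08 without the array), 0.09 in hippocampus and -2.47 in striatum.

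Genes further below 0 in brainstem in both fits were Ighm (-4.29), Cldn34c1 (-3.35), H2-D1 (-2.42), Fam227b (-2.32), Glra1 (-1.75), Nrg1 (-1.37) and Scn4b (-1.01). For Cldn34c1 the differences were -4.47 in brainstem, -1.59 in hippocampus and -0.64 in striatum, and for Scn4b they were -1.72, -0.45 and -0.98. In Mir1931 (4.83), Etnppl (2.42) and Fcrls (1.16) the loss was smaller in brainstem, and in Cfap54 (-3.13) the gain was smaller there. The Wdfy1 value did not pass without C57BL6/J untested 1 (adjusted p = 0.105).

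The other 11 passed with all arrays and not without C3H HeJ untested 2. They were Rgs8 (1.54), Icmt (1.2), Stat2 (1.18), Gabpb2 (1.08), Pla2g4e (1.06), Gria1 (0.83), Chrnb2 (0.48), Cry2 (0.37), Hspe1 (-0.36), Dnaja1 (-0.42) and Rps9 (-0.83). Without the array their adjusted p ran from 0.0512 for Pla2g4e to 0.291 for Chrnb2, and Rgs8, a regulator of G protein signalling in Purkinje cells, went to 0.51.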

How the results depend on the processing

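The count of called genes ran from 1405 to 3313 over the fits that left out 1 array each, and of those over 2-fold from 255 to 517. On the 6 arrays alone the counts were 222 and 141. The count against the other tissues ran from 296 to 1384. Same-labelled arrays of the strains (tested 1, untested 1, untested 2) deviated from their group means with correlations of -0.024, -0.043 and 0.027. In C3H HeJ untested 2 pulls the group mean away from the other arrays, so these values cannot decide whether the labels pair the arrays. The replicate block gave 2247 called genes and 654 against other tissues. Left-out arrays aside, no other alternative moved these totals by over 1.5 times, but median centring moved the genes higher from 1446 to 732, and quantile normalization moved those further below 0 in brainstem from 274 to 440. Of 79 named genes called with and without C3H HeJ untested 2, 76 kept call and direction under quantile normalization, 72 under median centring, 78 under the block, 68 with the mean of probe sets, 34 on 6 arrays alone and 61 to 63 without 1 C57BL6/J array. Directions turned in 9 named genes with a call in the main fit or in the alternative. Another 55 values of named genes changed sign with no call in either. Slc29a4 gave 0.0473 with its brightest brainstem probe set, and the mean of probe sets gave -0.0184 for Scn2b and -1.6922 for Camk2n1. Tph2 ran from -0.5599 to 0.804 over left-out arrays, and without C3H HeJ untested 2 gave 0.8252 on the other 5 arrays alone, 0.7348 under quantile normalization and 0.736 under centring. Ddc ran from -0.316 to 0.4033 (0.4192 on 5 arrays, 0.3603 quantile), Drd2 from -0.5523 to 0.6393 (0.673 on 5 arrays), Sncg from -0.5252 to 0.2408, and Hoxb5 gave 0.4155 on 5 arrays. Ecel1 ran from -0.3578 to 0.4444, with 0.413 under array weights, 0.449 on 5 arrays, 0.3559 under quantile normalization and 0.3763 under centring. For Tph2, Ddc, Drd2, Sncg, Hoxb5 and Ecel1 the alternatives that turned the direction left out or weighted down C3H HeJ untested 2; for the rest the cause was not tested. Array number, and background for probe sets near the 40th percentile, limit the precision. The 6-array fit without C3H HeJ untested 2 and the scalings without it were chosen after seeing the data.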

Other observations

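Camk2n1, an inhibitor of the calcium and calmodulin-dependent kinase CaMKII, gave 0.24 on its brightest probe set and -3.63 on its second.

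Ecel1, a neuronal endopeptidase, and Sncg, gamma-synuclein, are members of the brainstem neuron list above, and in both C3H HeJ untested 2 was the lowest of the 6 arrays. Erdr1, a gene near the pseudoautosomal boundary, was at 8.09, 8.33 and 8.69 in C3H HeJ and 9.70, 9.89 and 10.15 in C57BL6/J, and the arrays do not overlap.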
